A study of Mus musculus with 9 samples.

Results

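Type I interferon stimulated genes were followed in the back skin of mice with imiquimod-driven, psoriasis-like inflammation. The gene group holds 34 members, taken by symbol from the 56859 genes of the deposited read count table. Of the 34, 32 had enough reads to be tested, and Oas1a and Oas1g had 0 counts in every library. The symbols are those of well known interferon responders. The rule picks members by symbol and by no measured value, but the roster was drawn up with earlier results of these data known. That the IMQ libraries differ was among those results. Total RNA was sequenced from 9 libraries in 3 groups of 3. The first group, called IMQ + bergapten, received imiquimod (IMQ) for 7 days together with a bergapten gel for 2 days. The second group, called IMQ, received imiquimod alone for 7 days. The third, called vaseline, received vaseline for 7 days and no imiquimod. All animals were wild-type BALB/c mice, 6 to 8 weeks old, free of specific pathogens, and all were shaved. Bergapten is a plant furanocoumarin, and imiquimod is a small molecule that activates the nucleic acid receptor TLR7. No group received IMQ with a gel that lacked bergapten, so the compound and its carrier cannot be told apart. Neither the hour of collection nor the animal behind each library is given, and every p-value therefore reflects the spread among libraries, which may be technical only.

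Type I interferons are secreted when cells sense foreign or misplaced nucleic acid. They bind the receptor IFNAR1/IFNAR2, whose kinases JAK1 and TYK2 phosphorylate STAT proteins, among them STAT2. STAT2 and IRF9 are parts of ISGF3, a complex that binds the interferon stimulated response element in the promoters of its targets. Many targets encode proteins that block viruses, and others, such as USP18, dampen the pathway. In mouse skin, plasmacytoid dendritic cells are a known early source of these cytokines after imiquimod.

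The members' promoters are shown first, as a description of the group. RefSeq promoter windows on GRCm38.p6, running from 250 bases before to 50 bases after the annotated start, were found for 24 of the 34 members. The core of the response element was searched as GAAANNGAAA on both strands, with overlapping matches counted. It was present for 12 of the 24 members (50%), against 3.99% of the 27025 genes in the table. The members are well known interferon responders, so a share above that of all genes was likely in advance. A match is only a match of letters, and binding was not measured. Whether the motif bears on the members' values in these libraries was not tested. Of the 27 windows of members, 22 had downstream bases that open an annotated transcript. The stretches that hold the matches are given for 8 members, 5′ to 3′ on the gene's own strand, with the matched bases in capitals and up to 20 flanking bases in lower case.
Isg15 (chr4:156200855-156200916, minus strand): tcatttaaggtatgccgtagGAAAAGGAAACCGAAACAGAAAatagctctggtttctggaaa
Ifit1 (chr19:34640765-34640833, plus strand): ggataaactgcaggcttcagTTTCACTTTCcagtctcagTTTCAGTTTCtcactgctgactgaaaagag
Ifit3 (chr19:34583353-34583436, plus strand): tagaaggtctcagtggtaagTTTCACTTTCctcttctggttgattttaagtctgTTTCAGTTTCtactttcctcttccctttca
Ifit3b (chr19:34607749-34607832, plus strand): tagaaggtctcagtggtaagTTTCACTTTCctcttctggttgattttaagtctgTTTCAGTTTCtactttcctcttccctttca
Oas3 (chr5:120777705-120777754, minus strand): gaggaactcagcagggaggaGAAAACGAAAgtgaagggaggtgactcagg
Rsad2 (chr12:26456543-26456592, minus strand): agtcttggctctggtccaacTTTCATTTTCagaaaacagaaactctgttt
Bst2 (chr8:71537567-71537622, minus strand): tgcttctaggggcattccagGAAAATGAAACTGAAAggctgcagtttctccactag
Stat2 (chr10:128270256-128270305, plus strand): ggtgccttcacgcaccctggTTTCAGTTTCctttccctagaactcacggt

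In these stretches Isg15 carried 3 overlapping matches and Bst2 2, on the strand of the gene. Ifit1, Ifit3 and Ifit3b carried 2 separate matches each on the opposite strand, and the printed stretches of Ifit3 and Ifit3b are identical. The other members with a match were Oas1a, Oas1g, Ifih1 and Trim30a. No match lay in the windows of Ifit2, Oasl1, Oasl2, Irf7, Irf9, Ifi44, Cmpk2, Ifi35, Xaf1, Herc6, Epsti1 and Samd9l, which says only that these letters are not in those windows.

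Counted reads per library ran from 15855439 to 19862905. Levels below are CPM, the counts divided by library size after TMM scaling, and changes are log2 fold changes with their standard errors (SE). A gene is said to have risen or fallen only where edgeR's quasi-likelihood test gave a Benjamini-Hochberg adjusted p under 0.05 over all 18005 genes tested, and every adjusted p below is from that test. Skin identity was clear, since the basal keratin Krt5 stood between 1460 and 3460 CPM in all 9 libraries. The IMQ libraries were uneven. On a list of hair follicle growth genes, of which 19 of 20 were in the table, IMQ replicate 3 summed to 1150 CPM, while the other 8 libraries summed to 31.4 to 78.0 CPM. In limma's library weighting, IMQ replicate 2 received the lowest weight (0.272) and IMQ replicate 3 the next lowest (0.558), against 0.983 to 1.61 for the others.

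Per length of transcript, the most abundant member was Ifi27l2a, which encodes a small mitochondrial protein. The authors' FPKM values for it averaged 61.1 in IMQ + bergapten skin, 198 in IMQ skin and 394 in vaseline skin. Next in vaseline skin came Bst2 with 76.4 FPKM and Isg15 with 31.1 FPKM. The lowest of the 32 in vaseline skin was Oas3 with 1.41 FPKM, so the detected members spanned a wide range of levels.

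The group was lowest in IMQ + bergapten skin. Against vaseline skin, 11 of the 32 tested members (34.4%) fell in IMQ + bergapten skin, while 19.5% of all genes tested fell. That lead over all genes did not hold without IMQ replicate 1, any 1 IMQ + bergapten library, or vaseline replicate 1 or 2. The 11 were Usp18, Ifi27l2a, Ifit1, Isg15, Oasl1, Oasl2, Mx2, Ifi204, Cmpk2, Bst2 and Xaf1. Of the other 21 members, each had a log2 fold change below 0 but missed the threshold. No member rose, against 20.9% of all genes, and none had an unadjusted p under 0.05 in that direction, nor did DESeq2 or limma voom call one. The members' median log2 fold change was -1.15, against 0.01 over all genes tested. For 27 members every IMQ + bergapten library lay below every vaseline library, against 29.2% of all genes, and for 0 members did it lie above, against 30.0%. The 5 members whose groups overlapped were Mx1, Rsad2, Dhx58, Trim30a and Epsti1. In bulk tissue, fewer cells of a type and less RNA per cell cannot be told apart.

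Against IMQ skin, 2 members fell in IMQ + bergapten skin, Usp18 and Rsad2, while 2.65% of all genes tested fell. Another 10 of the 12 members with an unadjusted p under 0.05 missed the adjusted threshold, and DESeq2 called 6 members lower (18.8%, against 5.44% of all genes in that fit) and limma voom 3 (9.38%, against 3.03%). No member rose by any of these tools, or at an unadjusted p under 0.05, against 2.18% of all genes in edgeR's test. The median was -0.97, against -0.00 over all genes. Every IMQ + bergapten library lay below every IMQ library for 5 members, Usp18, Rsad2, Ifi204, Mx2 and Oasl1, against 13.2% of all genes, and above for 0, against 13.3%. Both comparisons with IMQ + bergapten share those 3 libraries.

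Imiquimod alone left most members without a call. Rsad2 rose and Usp18 fell in IMQ skin against vaseline skin, 1 member each way, while 23.0% of all genes rose and 20.2% fell. The median was -0.23, against 0.03 over all genes. Rsad2 was the 1 member with every IMQ library above every vaseline library, against 26.9% of all genes, and Usp18 the 1 member with every library below, against 25.4%.

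**Figure D1:**
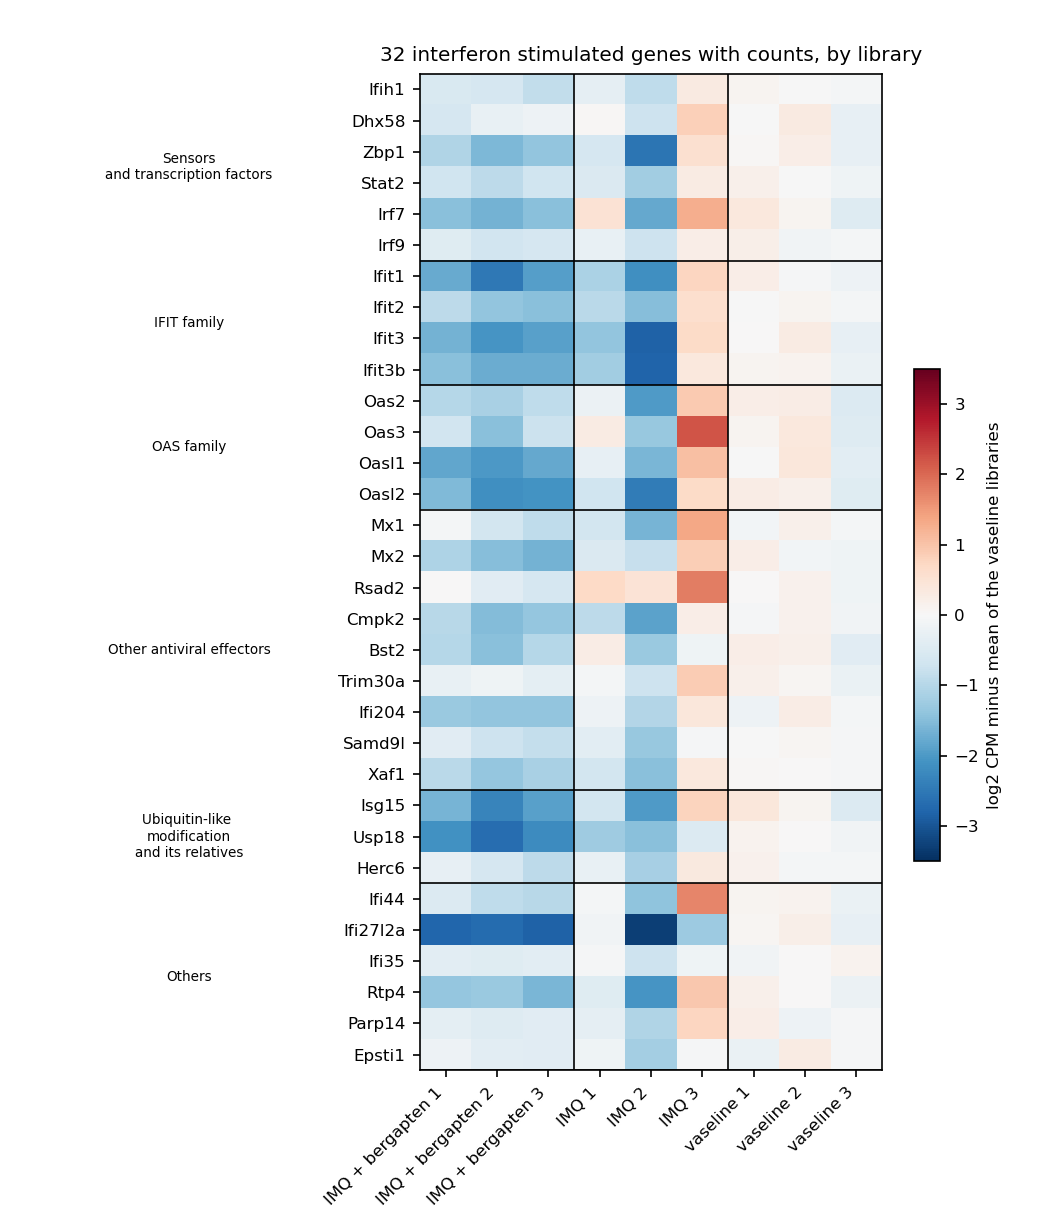
Heat map of the 32 members with counts (rows, grouped by role) in the 9 libraries (columns; IMQ + bergapten, IMQ, vaseline). Colour is log2 CPM minus the mean of the 3 vaseline libraries, red above and blue below. IMQ replicate 2 is the lowest IMQ library in all 32 rows, and IMQ replicate 3 the highest in 29.

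The 3 IMQ libraries stood apart from each other on these genes. Measured in log2 units from the vaseline mean, the median member stood at -0.31 in IMQ replicate 1, -1.43 in replicate 2 and 0.62 in replicate 3. The same medians were -0.97, -1.36 and -1.07 in the IMQ + bergapten libraries, and 0.09, 0.11 and -0.17 in the vaseline libraries. On this median IMQ replicate 2 was lower than each IMQ + bergapten library. The median member spanned 1.94 log2 units between the lowest and highest IMQ library, or 3.84-fold, against 0.46 units, or 1.38-fold, over all genes tested. Within IMQ + bergapten skin the median span of the members was 0.41 units, and within vaseline skin 0.40 units.

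For 29 of the 32 members replicate 2 was the lowest and replicate 3 the highest IMQ library, against 20.9% of all genes tested. The exceptions were Ifi27l2a, Bst2 and Ifi35, which were highest in replicate 1. An earlier report on these data had already given the members' median per IMQ library, so this order is not independent evidence. IMQ replicate 3 lay above every vaseline library for 26 members, against 40.3% of all genes. IMQ replicate 2 lay below every vaseline library for 31 members, against 39.7%, the exception being Rsad2. IMQ replicate 1 lay below every vaseline library for 20 members, against 38.5%, within the vaseline range for 9 and above it for 3. For 30 members, each IMQ + bergapten library lay below both IMQ replicate 1 and IMQ replicate 3, against 18.8% of all genes, and the exceptions were Mx1 and Ifit2. Replicate 2 was set aside there with its low values for the members known, so the share of all genes is not a fair yardstick. With all 3 IMQ libraries this held for 5 members (15.6%), near the 13.2% of all genes.

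Among the sensors and transcription factors of the pathway, none of the 6 members was called in any comparison. Against vaseline skin, 4 of them had an unadjusted p under 0.05 in IMQ + bergapten skin, and DESeq2 called 4 and limma voom 5, all lower. Against IMQ skin, Irf7 alone had an unadjusted p under 0.05 and a call by DESeq2, and in IMQ skin against vaseline skin no sensor or factor reached that p by edgeR or a call by either other tool. Irf7, the factor that amplifies type I interferon production, had the highest mean CPM over all 9 libraries (59.8), though Stat2 was above it in IMQ + bergapten and in vaseline skin. Irf7 had 23.5, 20.6 and 23.7 CPM in the IMQ + bergapten libraries, 92.6, 18.6 and 159 CPM in the IMQ libraries, and 83.8, 69.7 and 47.3 CPM in the vaseline libraries. Its IMQ + bergapten values stood below all vaseline values, while IMQ skin ran from below to above both. Its log2 fold change was -1.57 against vaseline skin (SE 0.65, adjusted p = 0.0915) and -1.99 against IMQ skin (SE 0.65, adjusted p = 0.13). Stat2 and Irf9, which encode parts of ISGF3, had log2 fold changes of -0.78 and -0.58 in IMQ + bergapten skin against vaseline skin (adjusted p = 0.0879 and 0.0506). Ifih1, a sensor of long double-stranded RNA, Dhx58, its regulator, and Zbp1, a sensor of Z-form nucleic acid, had -0.66, -0.36 and -1.33 in that comparison. Irf7 shares 45 annotated bases with Phrf1 on the other strand, and the strand setting of the counting is not given in the sources used here. Irf9 shares 123 bases with Rnf31 on the same strand.

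The IFIT proteins bind viral RNA and block its translation. Of 4 members, Ifit1 fell in IMQ + bergapten skin against vaseline skin, and all 4 had an unadjusted p under 0.05. Ifit1 had 4.42, 2.63 and 3.93 CPM in the IMQ + bergapten libraries, 6.96, 3.40 and 26.0 CPM in the IMQ libraries, and 18, 14.8 and 13.4 CPM in the vaseline libraries. IMQ + bergapten skin did not overlap vaseline skin, and IMQ replicate 3 alone was above both. The log2 fold change against vaseline skin was -2.08 (SE 0.67, adjusted p = 0.0387), and against IMQ skin it was -1.73 (SE 0.67, adjusted p = 0.181). Ifit2, with the family's highest mean CPM over all libraries, had 21.0, 15.2 and 14.4 CPM in the IMQ + bergapten libraries, 20.8, 14.3 and 60.1 CPM in the IMQ libraries, and 39.3, 42.6 and 38 CPM in the vaseline libraries. IMQ replicates 1 and 2 lay within the range of IMQ + bergapten skin or just below it for Ifit2, whose change against vaseline skin was -1.25 (SE 0.48, adjusted p = 0.072).

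Ifit3 and Ifit3b are near copies, and 51.2% of the 50-base words of Ifit3 transcripts also occur in Ifit3b, so the split of reads between them is uncertain. Ifit3 had 8.24, 6.16 and 6.99 CPM in the IMQ + bergapten libraries, 10, 3.61 and 41.8 CPM in the IMQ libraries, and 26.4, 31.9 and 21.6 CPM in the vaseline libraries. Ifit3b had 3.94, 3.23 and 3.21 CPM in the IMQ + bergapten libraries, 4.68, 1.51 and 14.4 CPM in the IMQ libraries, and 11.8, 12.2 and 9.51 CPM in the vaseline libraries. Both copies showed the same order of libraries within IMQ skin, and neither passed the threshold against vaseline skin (-1.90, SE 0.75, adjusted p = 0.0782 for Ifit3, and -1.69, SE 0.65, adjusted p = 0.0693 for Ifit3b).

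The OAS family makes or resembles the synthetases of 2′-5′ oligoadenylate, the messenger that activates RNase L. Of its 6 members, 4 were tested, and Oasl1 and Oasl2 fell in IMQ + bergapten skin against vaseline skin. Oasl1, known in mouse as a brake on Irf7 translation, had 2.39, 2.09 and 2.45 CPM in the IMQ + bergapten libraries, 7.17, 2.80 and 18.3 CPM in the IMQ libraries, and 8.66, 11.4 and 6.66 CPM in the vaseline libraries. IMQ + bergapten skin overlapped neither of the other groups for Oasl1. Its log2 fold change was -1.95 against vaseline skin (SE 0.59, adjusted p = 0.0292) and -2.03 against IMQ skin (SE 0.59, adjusted p = 0.0907). Oasl2 had 16.1, 10.5 and 11.1 CPM in the IMQ + bergapten libraries, 29.0, 8.57 and 74.5 CPM in the IMQ libraries, and 56.0, 53.6 and 35 CPM in the vaseline libraries. For Oasl2, IMQ replicate 2 was the lowest of all 9 libraries and IMQ replicate 3 the highest. It fell against vaseline skin (-1.94, SE 0.66, adjusted p = 0.0488) and had -1.58 against IMQ skin (SE 0.66, adjusted p = 0.212).

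Oas3 had the highest log2 fold change after Rsad2 in IMQ skin against vaseline skin (1.02, SE 0.75, adjusted p = 0.308), with IMQ replicate 3 at 31.2 CPM and replicates 1 and 2 at 8.31 and 2.64 CPM. Oas2 had -1.05 in IMQ + bergapten skin against vaseline skin (SE 0.60, adjusted p = 0.204). Oas1a and Oas1g, whose promoter windows hold the motif, had 0 counts in all 9 libraries, and 57.6% of the 50-base words of Oas1a also occur in Oas1g. Of the words of Oas1g, 45.2% occur in Oas1a. Ifit3 and Ifit3b, with 51.2% and 44.5% of words shared, had counts in every library. Reads that match several genes may not have been counted, and how they were treated is not given in the sources used here. Whether this bears on the 0 counts was not tested.

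Among 9 other antiviral effectors, 5 fell in IMQ + bergapten skin against vaseline skin, namely Mx2, Ifi204, Cmpk2, Bst2 and Xaf1, and Rsad2 changed in both comparisons with IMQ skin. Rsad2 encodes viperin, a radical enzyme that makes a chain-terminating nucleotide. Rsad2 had 8.90, 6.71 and 5.81 CPM in the IMQ + bergapten libraries, 14.6, 12.3 and 30.8 CPM in the IMQ libraries, and 8.99, 9.81 and 7.97 CPM in the vaseline libraries. All 3 IMQ libraries stood above the other 6, and IMQ + bergapten skin overlapped vaseline skin. Rsad2 rose in IMQ skin against vaseline skin by 1.11 (SE 0.33, adjusted p = 0.0207) and fell in IMQ + bergapten skin against IMQ skin, with -1.43 (SE 0.33, adjusted p = 0.041). It was the 1 member with that pattern. Cmpk2, its neighbour on chromosome 12 and a mitochondrial nucleotide kinase, differed from it. Cmpk2 had 7.83, 5.32 and 6.02 CPM in the IMQ + bergapten libraries, 8.21, 4.2 and 18.3 CPM in the IMQ libraries, and 15.1, 17.5 and 14.4 CPM in the vaseline libraries, and fell against vaseline skin (-1.29, SE 0.45, adjusted p = 0.0459). Whether the 2 genes respond differently was not tested.

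Ifi204 encodes a DNA-binding protein of the AIM2-like family. It had 16.4, 15.7 and 15.9 CPM in the IMQ + bergapten libraries, 36.1, 20 and 53.8 CPM in the IMQ libraries, and 36.1, 48.6 and 39.3 CPM in the vaseline libraries. The IMQ + bergapten values were tightly grouped and below the other 6. Ifi204 fell against vaseline skin (-1.37, SE 0.30, adjusted p = 0.00675) and had -1.20 against IMQ skin (SE 0.30, adjusted p = 0.0597). Mx2, an interferon-induced GTPase, had 2.63, 1.94 and 1.73 CPM in the IMQ + bergapten libraries, 4, 3.23 and 10.4 CPM in the IMQ libraries, and 6.74, 5.36 and 5.11 CPM in the vaseline libraries. Its IMQ + bergapten libraries were likewise below the other 6, with -1.45 against vaseline skin (SE 0.42, adjusted p = 0.0203) and -1.49 against IMQ skin (SE 0.42, adjusted p = 0.0748). Its paralogue Mx1 had 7.71, 5.17 and 4.33 CPM in the IMQ + bergapten libraries, 5.20, 2.53 and 20.8 CPM in the IMQ libraries, and 7.62, 9.15 and 7.73 CPM in the vaseline libraries. Mx1 overlapped in each comparison, and its log2 fold change in IMQ skin against vaseline skin was 0.22 (adjusted p = 0.81) but -1.10 without IMQ replicate 3 (adjusted p = 0.0246).

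Bst2 encodes tetherin, which holds budding virions at the cell surface. Bst2 had 31.0, 22.3 and 30.7 CPM in the IMQ + bergapten libraries, 73.8, 25 and 55.8 CPM in the IMQ libraries, and 71.8, 69.7 and 47.1 CPM in the vaseline libraries. It was among the 3 members that were highest in IMQ replicate 1, and it fell in IMQ + bergapten skin against vaseline skin (-1.17, SE 0.37, adjusted p = 0.0349). Xaf1, an antagonist of the apoptosis inhibitor XIAP, had 12.3, 9.39 and 10.9 CPM in the IMQ + bergapten libraries, 15.4, 8.68 and 30.8 CPM in the IMQ libraries, and 24.5, 24.1 and 23.2 CPM in the vaseline libraries. The vaseline values lay close together and above IMQ replicates 1 and 2, and Xaf1 fell in IMQ + bergapten skin against vaseline skin (-1.14, SE 0.38, adjusted p = 0.0418). Samd9l, a growth-restraining antiviral factor with the highest mean CPM of these effectors over all libraries, although not in IMQ skin, had 53.9, 43.4 and 40.3 CPM in the IMQ + bergapten libraries, 54.9, 28.4 and 69.3 CPM in the IMQ libraries, and 70.7, 75.4 and 69.0 CPM in the vaseline libraries. Samd9l overlapped between the IMQ-treated groups, and its change against vaseline skin was -0.65 (SE 0.27, adjusted p = 0.0939). Trim30a, a ubiquitin ligase of the TRIM family, had -0.26 in that comparison (SE 0.35, adjusted p = 0.585).

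**Figure D2:**
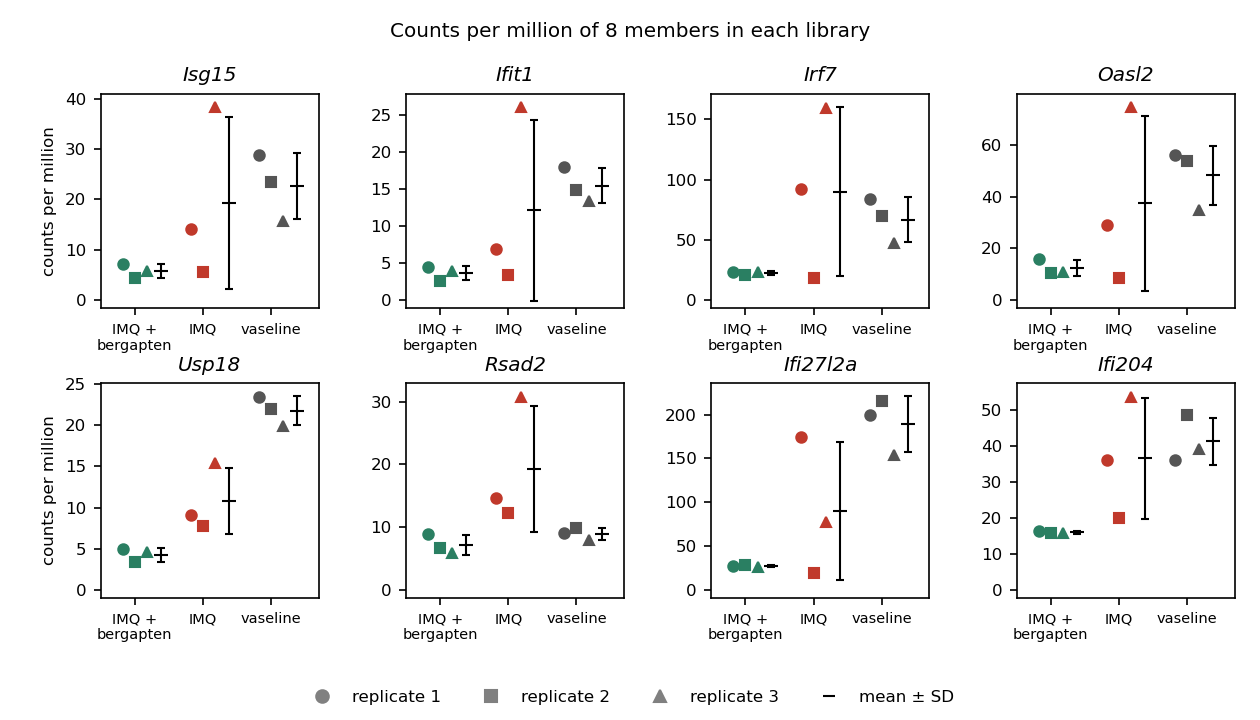
CPM of 8 members in each library (points; shape gives the replicate number, colour the group) with mean ± SD beside each group (n = 3). In each panel but Usp18 and Rsad2, the IMQ values reach down to or close to the IMQ + bergapten values in replicate 2, and the 3 IMQ + bergapten values lie close together.

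Isg15 encodes a ubiquitin-like protein that is attached to other proteins, USP18 removes it, and Herc6 encodes its main ligase in mouse. Isg15 had 7.11, 4.37 and 5.81 CPM in the IMQ + bergapten libraries, 14.1, 5.55 and 38.3 CPM in the IMQ libraries, and 28.9, 23.4 and 15.8 CPM in the vaseline libraries. It fell against vaseline skin (-1.98, SE 0.63, adjusted p = 0.0379) and had -1.75 against IMQ skin (SE 0.63, adjusted p = 0.159), where IMQ replicate 2 overlapped. Usp18 had 4.96, 3.33 and 4.59 CPM in the IMQ + bergapten libraries, 9.15, 7.82 and 15.4 CPM in the IMQ libraries, and 23.4, 22.0 and 19.9 CPM in the vaseline libraries. Its 3 groups did not overlap, and it was the 1 member called in all 3 comparisons. Usp18 averaged 4.29 ± 0.854 CPM in IMQ + bergapten skin, 10.8 ± 4.05 CPM in IMQ skin and 21.7 ± 1.79 CPM in vaseline skin (SD, n = 3 each). It fell in IMQ + bergapten skin against vaseline skin (-2.34, SE 0.26, adjusted p = 9.2e-05), in IMQ + bergapten skin against IMQ skin (-1.33, SE 0.26, adjusted p = 0.0225) and in IMQ skin against vaseline skin (-1.01, SE 0.24, adjusted p = 0.00742). Herc6 did not pass, with -0.59 in IMQ + bergapten skin against vaseline skin (SE 0.33, adjusted p = 0.184).

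Of the remaining 6 members, Ifi27l2a fell. It had 27.1, 28.7 and 26.3 CPM in the IMQ + bergapten libraries, 174, 18.9 and 77.3 CPM in the IMQ libraries, and 199, 215 and 154 CPM in the vaseline libraries. In IMQ skin it ran from a value below every other library to one within the vaseline range. Its log2 fold change in IMQ + bergapten skin against vaseline skin was -2.79 (SE 0.67, adjusted p = 0.0128), the lowest of the 32, and in IMQ skin against vaseline skin it was -1.07 (SE 0.63, adjusted p = 0.211). Ifi44 had -0.78 (adjusted p = 0.388) and Rtp4, a receptor chaperone, -1.42 (adjusted p = 0.105) in IMQ + bergapten skin against vaseline skin, and Rtp4 shares 525 bases with Masp1 on the other strand. Ifi35, Parp14 (a mono-ADP-ribosyltransferase) and Epsti1 had -0.39, -0.40 and -0.33 (adjusted p = 0.0883, 0.453 and 0.367).

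**Figure D3:**
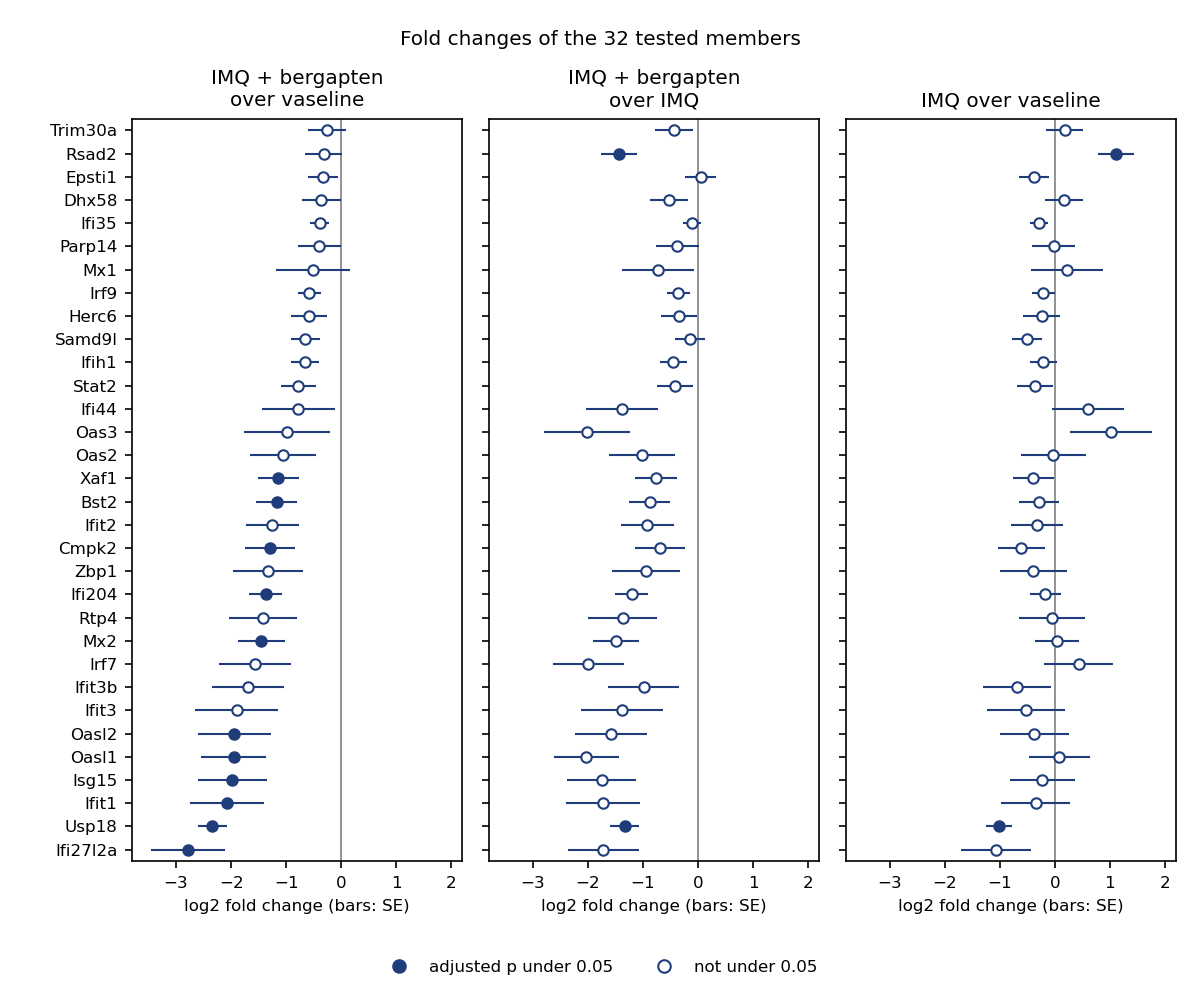
Log2 fold changes (points) with SE (bars) of the 32 tested members in IMQ + bergapten over vaseline, IMQ + bergapten over IMQ, and IMQ over vaseline skin. Filled points have an adjusted p under 0.05, which holds for 11, 2 and 2 members. All points lie below 0 in the left panel and all but Epsti1 in the middle panel.

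The counts rested on single libraries, and the 3 groups shared 1 estimate of the spread. The 11 members that fell in IMQ + bergapten skin against vaseline skin became 24 without IMQ replicate 2 and 18 without IMQ replicate 3, against 22.5% and 22.0% of all genes in those fits. Without IMQ replicate 1 they became 7, and this share (21.9%) was near that of all genes (21.1%). The count was 4, 3 and 3 without IMQ + bergapten replicates 1, 2 and 3, where 12.5%, 9.38% and 9.38% of members stood below the 17.7%, 15.7% and 15.3% of all genes. It was 3 and 4 without vaseline replicates 1 and 2 (9.38% and 12.5%), again below all genes (17% and 16.6%), and 7 without vaseline replicate 3 (21.9%, against 16.1%). Fitted on these 6 libraries alone, without IMQ skin, 27 members fell, against 25.4% of all genes in that fit. Usp18, Ifi27l2a and Ifi204 passed in every one of the 9 fits that left out a library and in the 6 other fits.

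Against IMQ skin, the 2 members that fell in IMQ + bergapten skin became 11 without IMQ replicate 2, against 2.78% of all genes in that fit, and the members' median log2 fold change was then -1.45. Without IMQ replicate 3 the count was 2, or 6.25%, against 5.35% of all genes, and the median was -0.13. By edgeR, 0 members fell without IMQ + bergapten replicate 1, 2 or 3, where 7, 6 and 6 had an unadjusted p under 0.05. In those fits 0.401%, 0.942% and 0.449% of all genes fell, so a count of 0 was near the share of all genes. Without vaseline replicate 1, 2 or 3, 1 member (3.12%) fell, against 1.42% to 1.46% of all genes. Over the 9 fits the adjusted p of Usp18 ran from 0.00627 to 0.0838 and that of Rsad2 from 0.0148 to 0.15. For IMQ skin against vaseline skin, 14 members fell without IMQ replicate 3, against 20.2% of all genes in that fit, with a median of -0.83. The count was 2 without IMQ replicate 1 and 1 without IMQ replicate 2 (median 0.09), against 19.6% and 21.0% of all genes, and Usp18 passed in all 9 fits. The rise of Rsad2 was lost without vaseline replicate 1, 2 or 3 (adjusted p up to 0.0812), and without IMQ replicate 2 there were 2 rises, Rsad2 and Irf7.

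Of the pathway around the members, the ligands were almost unread. Of 21 interferon genes listed, 6 had any count and none could be tested. The keratinocyte interferon Ifnk had 5 counts, all in vaseline skin, and Ifnb1 had 1 count, in IMQ + bergapten skin. Ifna16 had 2 counts in IMQ + bergapten skin, Ifnab 1 in IMQ skin, and Ifnz 2, 1 and 1 in IMQ + bergapten, IMQ and vaseline skin. Ifng, the type II interferon, had 4, 4 and 9 counts in the same order. At this depth no difference in ligands was detectable.

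Against vaseline skin, receptor and signalling genes did not follow the members. Of 14 tested, 7 rose in IMQ + bergapten skin against vaseline skin (20.9% of all genes rose), and 7 rose and 1 fell in IMQ skin against vaseline skin (23.0% and 20.2% of all genes). Ifnar2, a receptor chain, rose in both, with log2 fold changes of 0.77 (SE 0.13, adjusted p = 0.000919) in IMQ + bergapten skin and 0.52 (SE 0.13, adjusted p = 0.00738) in IMQ skin. Ifnar1 rose in IMQ + bergapten skin (0.31, adjusted p = 0.0119) and missed the threshold in IMQ skin (0.11, adjusted p = 0.292). Jak1 rose in both (0.29 and 0.30, adjusted p = 0.0146 and 0.0115), as did Stat3 (0.75 and 0.94) and the phosphatase Ptpn1 (0.94 and 1.21). Tyk2 had 67.1, 64.4 and 61.6 CPM in the IMQ + bergapten libraries, 45.3, 45.7 and 47.7 CPM in the IMQ libraries, and 58.5, 57.5 and 59.8 CPM in the vaseline libraries. It was low in IMQ skin alone, where it fell against vaseline skin (-0.34, SE 0.07, adjusted p = 0.00359), and it rose in IMQ + bergapten skin against IMQ skin (0.48, SE 0.07, adjusted p = 0.00961). The phosphatase Ptpn6 was the other of the 2 genes of this list that rose there (0.68, SE 0.15, adjusted p = 0.0383), where 2.18% of all genes rose. It also rose against vaseline skin in IMQ + bergapten skin (1.29, SE 0.16, adjusted p = 0.000166) and in IMQ skin (0.62, SE 0.16, adjusted p = 0.00972). Against IMQ skin 0 of the 14 fell in IMQ + bergapten skin (2.65% of all genes fell). At an unadjusted p under 0.05 by edgeR, 5 were lower there and 3 higher. The list's median log2 fold change was -0.18. Ptpn2, a further phosphatase, rose against vaseline skin in IMQ skin (0.55, SE 0.09, adjusted p = 0.000941) and in IMQ + bergapten skin (0.29, SE 0.09, adjusted p = 0.0304).

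Genes that sense nucleic acid upstream of interferon production gave more rises than falls with imiquimod, with and without bergapten. Of 24 tested, 12 rose and 1 fell in IMQ + bergapten skin against vaseline skin, where 20.9% of all genes rose and 19.5% fell. In IMQ skin against vaseline skin 13 rose and 1 fell, where 23.0% of all genes rose and 20.2% fell. The 1 that fell was Tlr3 in both. Tlr7, the receptor for imiquimod, had 35.5, 30.1 and 26.1 CPM in the IMQ + bergapten libraries, 55.0, 65.5 and 36.0 CPM in the IMQ libraries, and 25.8, 23.6 and 20.9 CPM in the vaseline libraries. It was highest in IMQ replicate 2, the library lowest for the members. Tlr7 rose in IMQ skin against vaseline skin (1.15, SE 0.21, adjusted p = 0.00163), and had -0.77 in IMQ + bergapten skin against IMQ skin (SE 0.21, adjusted p = 0.0639). Its adaptor Myd88 rose against vaseline skin in IMQ + bergapten skin (0.73, adjusted p = 0.00111) and in IMQ skin (0.85, adjusted p = 0.000398). Tlr8 rose in IMQ + bergapten skin by 1.72 and in IMQ skin by 1.71 (SE 0.15 each). Traf6, a ubiquitin ligase downstream of Myd88, rose against vaseline skin in IMQ skin (0.84, SE 0.11, adjusted p = 0.000216) and in IMQ + bergapten skin (0.67, SE 0.11, adjusted p = 0.000941). The DNA receptor Tlr9 and the transcription factor Irf8 rose in IMQ + bergapten skin against vaseline skin (1.70, SE 0.19, adjusted p = 9.82e-05 and 1.04, SE 0.10, adjusted p = 4.72e-05). Both also rose in IMQ skin against vaseline skin (1.04, SE 0.19, adjusted p = 0.00159 and 0.52, SE 0.10, adjusted p = 0.00246). Against IMQ skin, 2 of the 24 rose in IMQ + bergapten skin (8.33%, against 2.18% of all genes) and 0 fell (against 2.65%). The 2 were Irf8 (0.52, SE 0.10, adjusted p = 0.0236) and the TLR chaperone Unc93b1 (0.65, SE 0.15, adjusted p = 0.0383).

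A further 66 interferon stimulated genes that are not members were tested. In IMQ + bergapten skin against vaseline skin 14 fell (21.2%, near the 19.5% of all genes) and 5 rose (7.58%, against 20.9%), with a median of -0.37. Against IMQ skin 4 fell (6.06%, against 2.65% of all genes), Ifi205, Ifi207, Ifi211 and Tor1aip1, with a median of -0.33. In IMQ skin against vaseline skin 8 rose and 5 fell (12.1% and 7.58%, against 23.0% and 20.2% of all genes), with a median of -0.04. Ifi205, of the same gene family as Ifi204, had 17.1, 12.8 and 15.5 CPM in the IMQ + bergapten libraries, 34, 29.3 and 33.7 CPM in the IMQ libraries, and 61.4, 54.0 and 53.1 CPM in the vaseline libraries. Its groups did not overlap and its IMQ libraries lay close together. Ifi205 fell in IMQ + bergapten skin against vaseline skin (-1.89, SE 0.13, adjusted p = 4.64e-06) and against IMQ skin (-1.10, SE 0.12, adjusted p = 0.00293), and in IMQ skin against vaseline skin (-0.80, SE 0.12, adjusted p = 0.000531). Ifi207 fell in IMQ + bergapten skin against IMQ skin (-1.04, SE 0.09, adjusted p = 0.00139) and against vaseline skin (-0.66, SE 0.09, adjusted p = 0.000384). Ifi211 fell against IMQ skin (-1.26, SE 0.25, adjusted p = 0.0247). The Ifi200 genes are similar in sequence, so the split of reads between them is uncertain. Ifitm1, which encodes a membrane protein that blocks viral entry, was higher than in vaseline skin in IMQ + bergapten skin (1.87, SE 0.30, adjusted p = 0.00125) and in IMQ skin (2.37, SE 0.30, adjusted p = 0.000312). Slfn2 also rose against vaseline skin in IMQ + bergapten skin (0.77, SE 0.18, adjusted p = 0.00827) and in IMQ skin (1.25, SE 0.18, adjusted p = 0.000522).

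Genes that lean toward interferon gamma shared the low value of IMQ replicate 2 but gave few calls. The median of the 20 tested stood at -0.11, -0.53 and -0.40 log2 units from the vaseline mean in the IMQ + bergapten libraries, and at 0.51, -1.61 and 0.52 in the IMQ libraries. Ciita, the master regulator of MHC class II, was the 1 gene called on this list. It had 66.4, 53.4 and 53.6 CPM in the IMQ + bergapten libraries, 16.1, 9 and 28.4 CPM in the IMQ libraries, and 40.6, 31.7 and 33.8 CPM in the vaseline libraries, so that it ran opposite to the members between the IMQ-treated groups. Ciita rose in IMQ + bergapten skin against IMQ skin (1.70, SE 0.35, adjusted p = 0.036) and fell in IMQ skin against vaseline skin (-0.99, SE 0.35, adjusted p = 0.0481).

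**Figure D4:**
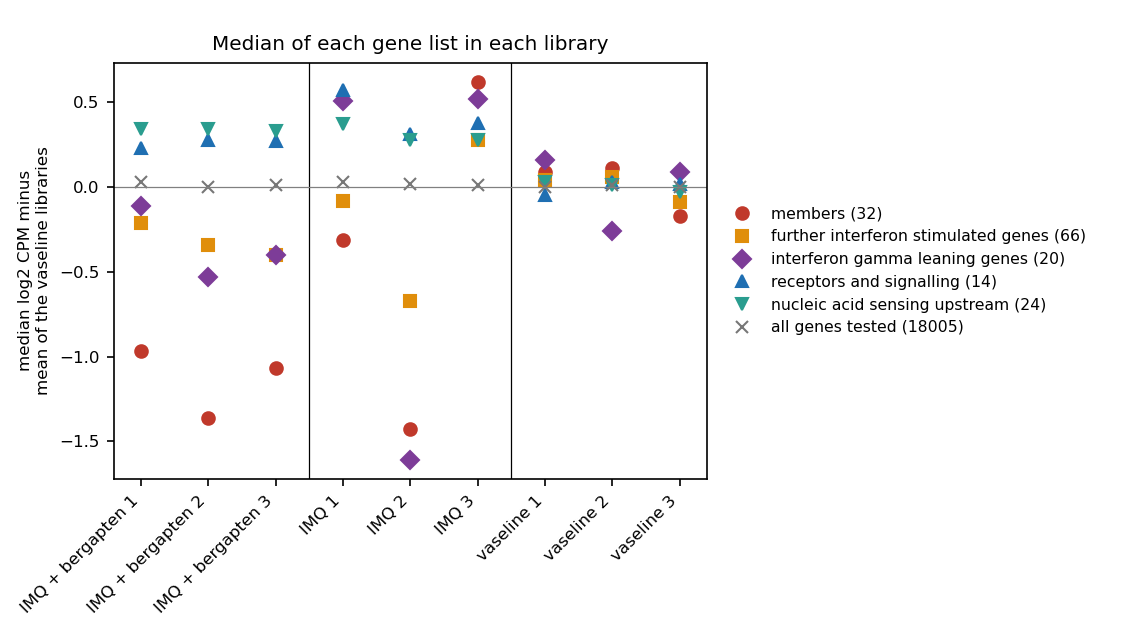
Median of log2 CPM minus the vaseline mean for the members, 4 pathway lists and all genes tested, in each library. The members lie between -0.97 and -1.36 in IMQ + bergapten libraries and spread from -1.43 to 0.62 in IMQ libraries, while the median of all genes stays between 0.00 and 0.03 in both.

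Markers of other cell types moved between the same libraries. For plasmacytoid dendritic cells, all 8 listed genes were in the table and none of the 3 defining ones was at 0 over all libraries. The defining receptor Siglech had 4.78, 4.82 and 2.86 CPM in the IMQ + bergapten libraries, 1.51, 1.35 and 1.98 CPM in the IMQ libraries, and 9.54, 9.54 and 10.8 CPM in the vaseline libraries. Siglech was thus lowest in IMQ skin, but the other defining genes differed from it. Cox6a2 had 22.9 to 27.8 CPM in IMQ + bergapten skin, 31.0 to 39.1 CPM in IMQ skin and 74.2 to 82.2 CPM in vaseline skin. Skeletal muscle markers, 7 of 7, summed to 3980 to 4390, 4150 to 5890 and 14800 to 16100 CPM in the same order. Both were thus highest in vaseline skin, and the cell source of Cox6a2 cannot be told in bulk skin. Ccr9 had 3.01 to 4.77 CPM in IMQ + bergapten skin, 2.74 to 3.72 CPM in IMQ skin and 1.1 to 2.16 CPM in vaseline skin. The summed plasmacytoid list ran from 636 to 710 CPM in IMQ + bergapten skin, 768 to 812 CPM in IMQ skin and 497 to 509 CPM in vaseline skin. Most of that sum came from listed genes other than the 3 defining ones, so it does not measure this cell type. Neutrophil markers, 12 of 12 in the table, summed to 2810 to 6770 CPM in IMQ + bergapten skin, 3900 to 9700 CPM in IMQ skin and 36.2 to 48.1 CPM in vaseline skin, with the lowest IMQ value in replicate 2 and the highest in replicate 3. The defining neutrophil marker Ly6g was near the floor throughout, with 0.102 to 0.597 CPM in IMQ + bergapten skin, 0.965 to 1.3 CPM in IMQ skin and 0 in vaseline skin. The defining Cxcr2 had 29.0 to 43.0, 25.6 to 59.8 and 0.719 to 2.26 CPM in the same order. Csf3r, also defining, had 81.4 to 131, 38.8 to 109 and 12.1 to 16.9 CPM. Monocyte and macrophage markers, 12 of 12, summed to 2710 to 3170 CPM in IMQ + bergapten skin, 1740 to 2830 CPM in IMQ skin and 1490 to 1730 CPM in vaseline skin. Fibroblast markers, 7 of 7, summed to 23200 to 30000 CPM in IMQ + bergapten skin, 8240 to 19400 CPM in IMQ skin and 91900 to 98700 CPM in vaseline skin. The 2 defining genes did not move alike. Col1a1 had 6710 to 9500 CPM in IMQ + bergapten skin, 1910 to 5730 CPM in IMQ skin and 29500 to 31000 CPM in vaseline skin. Pdgfra was highest in IMQ skin, with 162 to 194 CPM, 235 to 247 CPM and 156 to 188 CPM in the same order. The part of these shifts, and of the hair follicle genes high in IMQ replicate 3, in the members' values was not tested.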

How the data were processed

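The authors sequenced total RNA of back skin in 9 libraries. The submitters' processing notes name Trimmomatic, HISAT2, HTSeq 0.6.0 and the build GRCm39. In the deposited table each library has a column of raw read counts per gene and a column of the authors' FPKM. The counts were tested here, and FPKM served for levels between genes and for 1 check. Of 56861 rows, 2 name no gene, hold 0 counts and were left out. No pair of replicates was identical (chi-square per degree of freedom 10.8 to 80.0).

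edgeR 4.0.16 under R 4.3.3 fitted 1 model with a mean per group to all libraries, with TMM factors and its robust quasi-likelihood F test, two-sided. Low genes were removed with filterByExpr (minimum count 10, minimum total 15), leaving 18005, and the common biological coefficient of variation was 0.187. SE is the absolute log2 fold change over the square root of F. Log2 CPM used a prior count of 2. The steps were tested on simulated counts. Alternatives were RLE size factors, DESeq2 1.42.0, limma 3.58.1 voom with library weights, no filter on low counts, only the 6 libraries compared, a replicate block, and leaving out each library.

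The members and lists were chosen with earlier results of these data known. Values in all libraries are given for each member called in any comparison, the member of each role with the highest mean CPM over all libraries, near copies, and Isg15, Irf7, Mx1, Ifit1 and Bst2. Of the lists, the ligands with a count, Ifnar1, Ifnar2, Jak1, Tyk2, Tlr7 and Myd88 were taken, and up to 3 called genes with the smallest p per list and comparison. 1 gene of the rule is not reported here.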

Additional observations from a re-analysis of the deposited data

How the results depend on the processing

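No member rose in IMQ + bergapten skin under any alternative, edgeR, DESeq2 or limma voom, and 0 had an unadjusted p under 0.05 in that direction. The members that fell there against vaseline skin numbered 11, and 19 with DESeq2 (21.0% of all genes fell in that fit), 23 with limma voom and library weights (25.5%), 4 or 12.5% with no filter on low counts (near the 9.99% of all genes), 27 with only the 6 libraries compared, and 3 to 24 when 1 library was left out. Against IMQ skin they numbered 2, and 6 with DESeq2 (5.44% of all genes fell in that fit) and 1 or 3.12% with no filter (1.72%). They numbered 0 with only the 6 libraries compared, where 11 had an unadjusted p under 0.05 and 0.445% of all genes fell. When 1 library was left out they numbered 0 to 11. The median log2 fold change against IMQ skin was -0.97 and ran from -1.45 to -0.13 when 1 library was left out. In IMQ skin against vaseline skin 1 member fell (1 to 14 when 1 library was left out) and 1 rose (0 to 2, with 1 at an unadjusted p under 0.05 where it was 0). The cause of these moves was not tested. Mx1, at 0.22 in IMQ skin against vaseline skin, ran from -1.10 (called, without IMQ replicate 3) to 0.68 when 1 library was left out. The fit with the replicate number as a block gave 10 members that fell against vaseline skin and 1 against IMQ skin (median -0.78). Of 9 same-numbered pairs, 1 had a correlation of deviations over 0.1 (range -0.091 to 0.176), so the numbers were not taken to pair libraries. The order of the IMQ libraries held for 29 members under RLE factors, a prior count of 0.5 and the authors' FPKM. Over all members, comparisons and alternatives, 1280 values kept their side of the threshold, 87 gained a call, 72 lost one and 1 reversed. At 0 to 9 counts over a group, the depth does not resolve the ligands.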
